A study of Mus musculus with 23 samples.

Results

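The genes described here encode the proteins of the cytosolic ribosome. They were chosen by name, as all genes whose symbol has the form Rpl or Rps with a number, or Rplp, on probe sets annotated to that symbol alone, and the Rps6k kinases were left out. The choice gave 48 of the 18193 genes with such a probe set, on 103 of the 45037 probe sets tested. Of these 48 genes, 42 were among 79 listed core ribosomal proteins and 6 were paralogues, that is, related copies of a core gene. Another 37 listed core genes were not members. For 27 of them every probe set was annotated to several genes, 2 (Rpsa and Fau) fell outside the naming rule, and no probe set carried the symbols of the other 8 in the annotation used here. Where more than 1 probe set measured a member, the brightest over all lines stood for the gene.

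Ribosomal proteins are assembled with ribosomal RNA into a small subunit, which decodes the message, and a large subunit, which joins the amino acids. Cells make these proteins in matched amounts, and free excess protein is degraded. The messages of most of them begin with a pyrimidine run, the 5′ terminal oligopyrimidine (TOP) motif, through which the kinase mTOR controls their translation. Rps6 protein is the best known substrate of S6 kinase, downstream of mTOR. This places the family next to the targets of both inhibitors of the study, the dual PI3K and mTOR inhibitor Bez235 and the mTOR inhibitor Rad001 (everolimus).

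RNA was measured in 23 untreated, low-passage murine PDAC (pancreatic ductal adenocarcinoma) cell lines, with 1 Affymetrix mouse array per line. The names of 12 lines begin with PPT, taken as lines of primary tumours, and 11 carry the prefixes ASC, B, HEP, HEP2, LN1, PUL or PUL3, taken as lines of metastases, although the prefix B is not explained. A genotype was known for 13 of the lines. Of these, 6 carried LSL-p53 R172H, 10 carried Ptf1aCre and 3 carried Pdx1-Cre, so that recombination followed promoters of the pancreatic lineage. The number in the name gives the mouse. It gave 15 mice, of which 5 had several lines (13 lines in all) and 4 had lines in both name groups (11 lines). B-152727 was counted as a mouse of its own, although the study's list holds B-15272 and not this name. Each line is 1 array of 1 culture, so all spreads are between lines.

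The median of an array lay between 3.58 and 3.89 on the log2 scale. The ductal keratins Krt8, Krt18 and Krt19 were above the array median in 22 of 23 lines. The exception for these keratins was ASC-5193, with 3.44 for Krt8, 2.46 for Krt18 and 2.87 for Krt19, against medians over lines of 13.09, 13.05 and 11.95. Other ductal markers were above the array median in fewer lines, Cdh1 in 21, Muc1 in 20, Krt7 in 19 and Epcam in 16, while Sox9 was in 23. Of 5 leukocyte markers, Ptprc was above the array median in 0 lines, while Lyz2 was above it in 19, Cd3e in 21 and Cd68 and Cd14 in 23. Of 5 endothelial markers, Kdr was above it in 23 lines and Pecam1, Cdh5, Tek and Emcn in 0. Of 4 acinar markers, Cela1 and Cel were above it in 22 lines and Cpa1 and Ptf1a in 0. The part of other cell types in the results was not tested.

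The starts of a few members are shown because the TOP motif at the start is the feature that ties this family to mTOR. Each stretch holds 15 bases before and 15 bases from the annotated transcript start (RefSeq, build GRCm38.p6, printed along the strand of the gene), and the capitals mark a C at the start and the unbroken run of C and T that follows it.
Rps6 (chr4:86857353-86857382, minus strand): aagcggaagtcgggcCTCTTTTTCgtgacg
Rpl35 (chr2:39005117-39005146, minus strand): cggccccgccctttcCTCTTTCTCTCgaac
Rpl38 (chr11:114668565-114668594, plus strand): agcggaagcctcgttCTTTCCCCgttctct
Rps10 (chr17:27635230-27635259, minus strand): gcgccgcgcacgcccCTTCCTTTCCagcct
Rpl27a (chr7:109519180-109519209, plus strand): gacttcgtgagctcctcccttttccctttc
Rps9 (chr7:3704026-3704055, plus strand): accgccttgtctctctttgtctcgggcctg
Rps4x (chrX:102189377-102189406, minus strand): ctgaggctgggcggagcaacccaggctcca
The first 4 begin with the run, Rpl27a and Rps9 have pyrimidine stretches that do not begin at the annotated base, and Rps4x has no such run at the start. Over all 42 members with an entry (50 annotated starts), a C followed by at least 4 bases that were each C or T stood at 8 starts (16.0%). The same search, on the strand of the gene, found it at 823 of 32851 annotated starts of all genes (2.51%). A start placed a few bases off hides the run, so the count describes the annotation and not the messages themselves. The members Rps20, Rps4l, Rps14, Rpl8, Rpl7 and Rps29 had no entry.

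Most members, 35 of 48, gave very bright signals that differed little between lines. The representing probe set of 35 members had a mean of 12 or more on the log2 scale, a limit set after seeing that no mean lay between 10.20 and 12.09. These 35 are called the bright members below. They made up 24.5% of the 143 genes at that brightness, and 28 of the 50 brightest genes were members. Brightness depends on the probes as well as on the RNA, so signals of different genes are not read as amounts. The brightest were Rps2 with a mean of 13.52 ± 0.19 (SD, n = 23), the stalk protein Rplp2 with 13.46 ± 0.17, Rpl41 with 13.45 ± 0.18 and Rps29 with 13.45 ± 0.19.

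**Figure D1:**
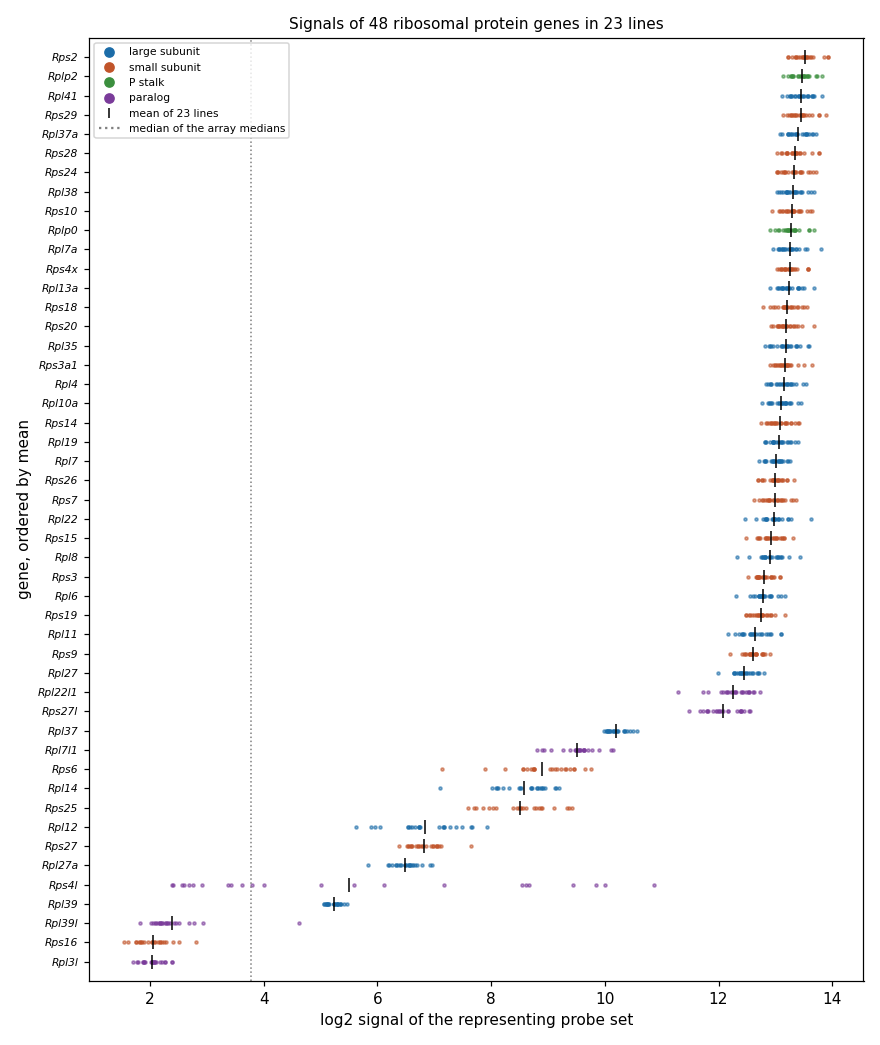
Log2 signal (x axis) of the representing probe set of each of the 48 ribosomal protein genes (y axis, ordered by mean), with 1 point per line (23 lines), the mean as a black tick, and colours for subunit and paralogue. The 35 bright genes sit in a narrow band above 11, while Rps4l stretches from 2.39 to 10.87.

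The median SD over the lines was 0.182 for the bright members, against 0.239 for the 108 other genes at or above the same limit and 0.281 for all probe sets. Those 108 genes were dimmer, with a median mean signal of 12.33 against 13.15 for the bright members. The part of brightness in the comparisons with them was not tested. After quantile normalization it was 0.0823 for the bright members and 0.178 for the other 108. In 33 of the 35 the SD was below 0.3. Rpl7, a large subunit protein, varied least of them on the deposited scale, with a lowest signal of 12.71, a median of 13.01 and a highest of 13.26. Rps3, a small subunit protein at the entry of the message channel, ran from 12.51 through a median of 12.78 to 13.08. The 2 above 0.3 were both paralogues, Rpl22l1 with an SD of 0.331 and Rps27l with 0.301. These 2 were also the dimmest of the bright members, with means of 12.26 and 12.09. They remained the most variable bright members after quantile normalization, with SDs of 0.371 and 0.282, where Rpl11 came next with 0.180. Rps4x and Rplp2 then varied least, both with an SD of 0.040, and Rpl7 had one of 0.0927.

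On the deposited scale the bright members rose and fell together from line to line. The mean of the 35 was lowest in PPT-17728 (12.81), PPT-6051 (12.84) and PUL3-53631 (12.87), and highest in PPT-16992 (13.39), PPT-3107 (13.35) and PPT-5486 (13.27). Over their 595 pairs the median Pearson r across the 23 lines was 0.771, and 99.7% of pairs were above 0. The median over pairs of all genes was 0.008. Rpl13a followed the mean of the other members most closely (r = 0.92), ahead of Rps10 (0.86), Rpl38 (0.86) and Rpl10a (0.84). Of the 35 bright members 34 had an r above 0.5, with Rpl22l1 as the exception at 0.35. Without ASC-5193 the median r over pairs of bright members was 0.787.

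Other bright genes took part in this movement, and it depended on the scaling of the arrays. The 108 other genes at or above the same limit, which were dimmer than the bright members, also moved together, with a median r of 0.419 over their pairs. Their mean per line had an r of 0.802 with the mean of the 35 bright members. After quantile normalization, which gives every array the same distribution of values, the median r over pairs of bright members was 0.068 and 57.0% of pairs were above 0, while the pairs of the other 108 genes had a median r of 0.016. The mean of the 35 then lay between 12.95 and 13.11. Centring each array on its median instead left a median r of 0.851. With the mean of the other bright genes taken out of each member by a straight line, the median r was 0.565. Each point in these correlations is 1 array with its own scaling, and the part of scaling in the shared movement was not tested.

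The genes outside the family that were most like the mean of the 35 bright members, of 18145 compared over 23 lines, were largely genes of translation. They were Rpsa (r = 0.91), itself a small subunit protein outside the naming rule, the elongation factor Eef1a1 (0.89), Tpt1 (0.89), the elongation factor subunit Eef1b2 (0.86) and Naca (0.84), a subunit of the complex that binds nascent chains. Other lists followed less closely. The mean of 31 measured translation factors had an r of 0.67 with the mean of the bright members. For 74 mitochondrial ribosomal proteins it was 0.39, for 30 ribosome biogenesis genes 0.32 and for 19 genes of the mTORC1 and S6 kinase arm 0.07. Within the lists the median r over pairs was 0.604 for ribosome biogenesis, 0.405 for translation factors, 0.394 for mitochondrial ribosomal proteins and 0.132 for the mTORC1 arm. These values are on the deposited scale, on which bright genes moved together, and the lists differed in brightness. The median signal was 11.68 for translation factors and 9.61 for ribosome biogenesis. It was 9.40 for mitochondrial ribosomal proteins and 7.62 for the mTORC1 arm. The single genes named above had means from 12.81 (Naca) to 13.73 (Tpt1). The part of brightness in these r values was not tested.

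The other 13 members were dimmer, and for the 9 core proteins among them the single-gene probe set differed from other probe sets of the same gene. The 9 were Rpl12, Rpl14, Rpl27a, Rpl37, Rpl39, Rps6, Rps16, Rps25 and Rps27, with means from 2.05 (Rps16) to 10.20 (Rpl37). Each of the 9 also had at least 1 probe set annotated to it together with pseudogenes or other copies. The brightest of these had means from 12.55 (Rps25) to 13.54 (Rps16), and their r with the mean of the 35 bright members ran from 0.75 (Rps27) to 0.96 (Rpl27a). For Rps16 the single-gene probe set ran from 1.55 to 2.81, below the array medians, while the shared probe set ran from 13.26 to 13.89. The shared probe sets cannot separate the gene from its copies. The 13 dim members had a median pair r of 0.0006 with each other, and Rpl39 was the only one with an r above 0.5 (0.53) with the mean of the other members.

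Rps6, the S6 kinase substrate, was set apart from the bright members on the probe set that stands for it, the brighter of 2 annotated to Rps6 alone. That probe set had a mean of 8.90 ± 0.59 (SD, n = 23). It was lowest in PUL-15272 (7.13), ASC-5193 (7.89) and PPT-15272 (8.24), had a median of 9.03, and was highest in PPT-3250 (9.76), PPT-17728 (9.65) and ASC-53909 (9.46). Its r with the mean of the other members was 0.03. Of 9 probe sets annotated to both Rps6 and its pseudogene Rps6-ps4, 4 were bright, with means of 13.19 to 13.28 and SDs of 0.156 to 0.192. Those 4 had an r of 0.71 to 0.80 with the mean of the other members and of 0.07 to 0.27 with the representing probe set. In PUL-15272, the lowest line for the representing probe set, they stood at 12.86 to 13.08. The other 5 shared probe sets had means of 2.43 to 10.79 and an r of 0.09 to 0.48 with the mean of the other members. The second probe set of Rps6 alone ran from 2.41 to 3.52, below the array medians, with a mean of 2.97. Its r was -0.23 with the mean of the other members and 0.15 with the representing probe set. On the deposited scale the 4 bright shared probe sets thus moved with the family, and both probe sets of Rps6 alone did not.

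The pattern of the representing Rps6 probe set was most like those of Rsrc1 (r = 0.79), Spice1 (0.76) and Gphn (0.75), and ran most opposite to Usp30 (-0.79), Znrf2 (-0.79) and Hipk1 (-0.79), as the extremes of 18145 genes over 23 lines. After quantile normalization its r with the mean of the other members was 0.55. With the mean of the bright members alone its r was -0.14 on deposited values and 0.48 after quantile normalization.

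Rps4l, a paralogue of the X-linked small subunit gene Rps4x, was by far the most variable member. Its SD over the lines was 2.95, the 76th largest of 45037 probe sets, and its signal ran from 2.39 in ASC-53909 to 10.87 in B-53631. In 8 lines it was above 7 and in 11 below 4, with a median of 4.0. It was high in all 4 lines of mouse 53631, at 8.67 in PPT-53631, 9.84 in HEP2-53631, 10.01 in PUL3-53631 and 10.87 in B-53631. It was also high in PPT-5193 (9.44), PPT-3107 (8.61), PPT-5486 (8.54) and HEP-5123 (7.17). PPT-3250 (6.11), PPT-5671 (5.59) and PPT-5320 (5.00) lay between.

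Lines of 1 mouse could differ in Rps4l. PPT-5193 had 9.44 and ASC-5193, of the same mouse number, 2.69. HEP-5123 had 7.17 and B-5123 had 3.62. The lines of mouse 15272 were all low (PPT-15272 2.56, PUL-15272 3.37 and LN1-15272 4.0), as were PPT-6051 (3.43) and B-6051 (2.76). The SD within mice was 2.03, against 2.95 over all lines. Rps4x itself, on its own probe set, stayed between 13.02 in PPT-17728 and 13.58 in PPT-5486, with a mean of 13.25 ± 0.16 (SD, n = 23). The r between Rps4l and Rps4x was 0.02. A single probe set measured Rps4l, so the pattern has no second probe set to set it against.

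**Figure D2:**
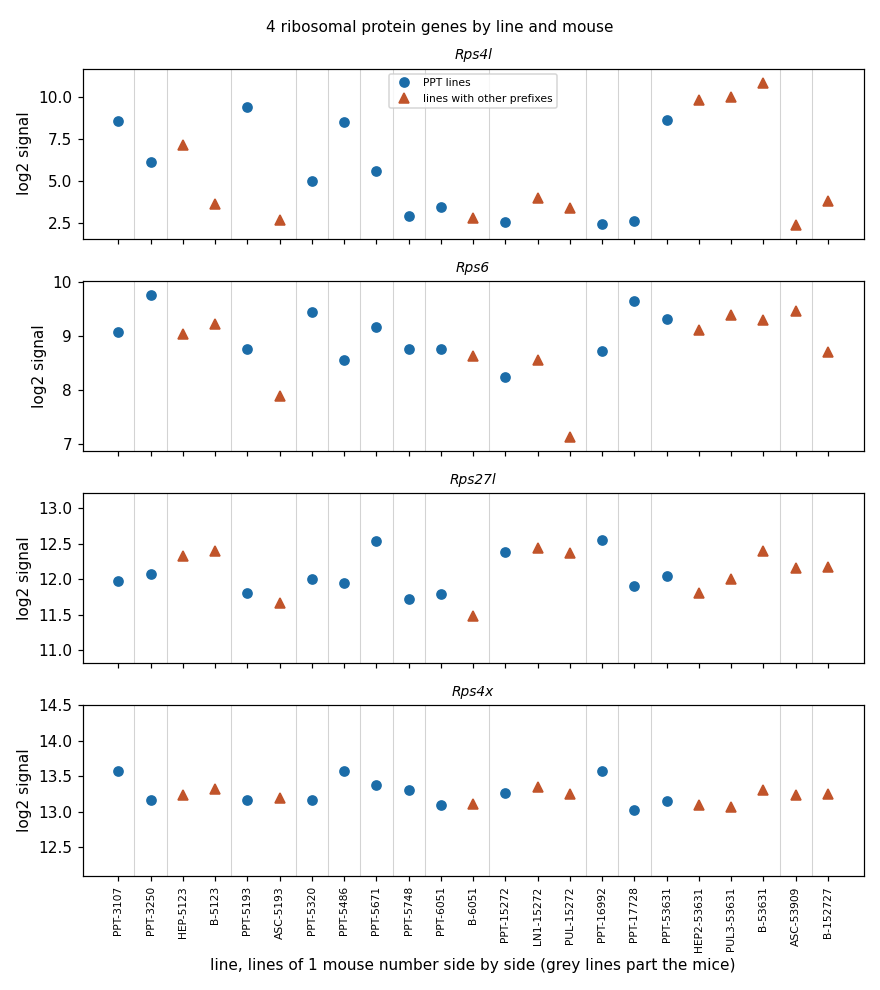
Log2 signal (y axes) of Rps4l, Rps6, Rps27l and Rps4x in each of the 23 lines (x axis), with lines of 1 mouse number side by side, circles for PPT lines and triangles for lines with other prefixes. The y axes differ in range. Rps4l spans 2.39 to 10.87 and is high in all 4 lines of mouse 53631, while Rps4x stays between 13.02 and 13.58.

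Genes whose pattern over the 23 lines was most like that of Rps4l were Psca, a surface antigen of epithelial tumours (r = 0.79), Ivl, involucrin of the cornified envelope (0.76), Sfi1 (0.74), Vars2, the mitochondrial valyl-tRNA synthetase (0.73), and Arap3 (0.73). The most opposite were the kinase Mapkapk2 (-0.75), the receptor Notch2 (-0.73) and Tollip (-0.71). They are the extremes of 18145 genes, so values of this size are selected. Of the 8 ductal markers, Muc1 (r = 0.48), Krt7 (0.46), Krt19 (0.42), Krt18 (0.40), Cdh1 (0.40) and Krt8 (0.35) had a positive r with Rps4l. These values include ASC-5193, the lowest line for the 4 keratins and also low in Rps4l (2.69), and are not given without it. Epcam had an r of 0.07 and Sox9 of -0.59. This look at the markers was added after the values were seen. The r of Rps4l with the mean of the other members was -0.03. It was -0.07 without ASC-5193, and its sign turned to 0.27 without mouse 53631 and to 0.18 with 1 mean value per mouse.

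Rps27l, a paralogue of Rps27 and a known transcriptional target of p53, had a signal of 12.09 ± 0.30 (SD, n = 23). It was lowest in B-6051 (11.48), ASC-5193 (11.67) and PPT-5748 (11.72) and highest in PPT-16992 (12.55), PPT-5671 (12.54) and LN1-15272 (12.44). Its SD within mice was 0.176. The genes most like it were Ei24 (r = 0.85), Exoc4 (0.84), Nudcd2 (0.81), Thyn1 (0.81) and Ccng1 (0.81). Ei24 and Ccng1 are known p53 targets. A list of p53 target genes, written after these values had been seen and so no independent evidence, gave r values for 11 of its 12 genes. Besides these 2 they were Mdm2 (0.76), Zmat3 (0.75), Cdkn1a (0.67), Phlda3 (0.54), Eda2r (0.44), Sesn2 (0.38), Plk2 (0.34), Trp53inp1 (0.22) and Bbc3 (0.01). After quantile normalization r is given only for Ccng1 (0.92), Ei24 (0.86), Mdm2 (0.80) and Cdkn1a (0.77). All of these had an r of 0.67 or more on deposited values, and the rest of the list is not given on that scale.

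The remaining paralogues were Rpl22l1, Rpl7l1, Rpl3l and Rpl39l. Rpl22l1, the copy of Rpl22, ran from 11.28 in ASC-5193 and 11.72 in B-6051 through a median of 12.29 to 12.73 in B-152727. Its r with Rpl22 was -0.13 on deposited values and -0.55 after quantile normalization. Rpl7l1 ran from 8.80 in HEP2-53631 to 10.14 in ASC-5193. Rpl3l, the striated muscle copy of Rpl3, stayed between 1.71 and 2.39, below the array medians in every line. Rpl39l, the germ cell copy of Rpl39, lay below 3 in all lines except PPT-3250 (4.63), and its median was 2.26. The r between a paralogue and its core gene was -0.31 for Rps27l with Rps27, -0.11 for Rpl39l with Rpl39 and -0.05 for Rpl7l1 with Rpl7, where the Rps27 and Rpl39 probe sets are among the dim ones above.

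Whether baseline levels of ribosomal protein messages ran with the response to either inhibitor was asked with the IC50 value of each line. The IC50 (half-maximal inhibitory concentration in a viability assay) came from the study's supplementary list and was used on the log2 scale for the 22 lines named there letter for letter. Neither IC50 fit had the mouse as a block, so lines of 1 mouse counted as independent in them. For Bez235, limma with Benjamini-Hochberg adjustment over 45037 probe sets called none at an adjusted p under 0.05 (0% of all probe sets), and so 0 of the 48 members. At an unadjusted p under 0.05 it found 2894 probe sets, 6.43% of all, and 1 of the 48 members, a smaller share than the background. That member was Rps4l. Its signal was lower in lines with a higher IC50, with a slope of -1.63 ± 0.73 (SE) log2 units per log2 unit of IC50 (unadjusted p = 0.0364, limma adjusted p = 0.760).

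The Rps4l slope leaned on the lines of mouse 53631, in which it was highest. Without that mouse the slope was -0.71 ± 0.77 (SE), with an unadjusted p of 0.371 from limma. With 1 mean value per mouse it was -0.84 ± 1.15 (SE), with an unadjusted p of 0.476. With the mouse as a random block it was -1.34 ± 0.68 (SE), with an unadjusted p of 0.0598 from limma. Without ASC-5193 it was -1.61 ± 0.85 (SE), with an unadjusted p of 0.0736. The representing Rps6 probe set had the next smallest p, with a slope of -0.31 ± 0.15 (SE; unadjusted p = 0.0525, limma adjusted p = 0.778). The 4 bright probe sets shared by Rps6 and Rps6-ps4 had slopes of 0.002 to 0.025, with unadjusted p from 0.647 to 0.978, and the 5 dimmer shared ones slopes of -0.049 to -0.008. The second probe set of Rps6 alone, which lay below the array medians, had a slope of -0.17 ± 0.07 (SE; unadjusted p = 0.0313, limma adjusted p = 0.749). With the mean over both probe sets of Rps6 alone the slope was -0.24 ± 0.08 (SE; unadjusted p = 0.00957, limma adjusted p = 0.623), and the p of Rps6 was then smaller than that of Rps4l (0.0375). Without ASC-53909 the representing probe set had a slope of -0.37, with an unadjusted p of 0.0232 from limma. Other settings weakened it. Without ASC-5193 its slope was -0.22 ± 0.17 (SE), with an unadjusted p of 0.211 from limma. It was -0.27 ± 0.23 (SE; unadjusted p = 0.262) with 1 mean value per mouse and -0.30 ± 0.20 (SE; unadjusted p = 0.152) without mouse 53631.

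Rps27 (0.13 ± 0.07, SE), Rpl37 (0.08 ± 0.05, SE) and Rpl14 (-0.21 ± 0.12, SE) followed, at limma adjusted p of 0.803, 0.807 and 0.807.

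The bright members as a group had slopes near 0 for Bez235. Their median slope was 0.042 log2 units per log2 unit of IC50 and 32 of 35 were above 0, beside a median of 0.031 with 79 of 108 above 0 for the other bright genes and a median of 0.0016 for all probe sets. The median over all 48 members was 0.042, and -0.0005 after quantile normalization. Rpl41 had the smallest p among the bright members, with a slope of 0.08 ± 0.05 (SE; limma adjusted p = 0.816).

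For Rad001 the same fit called no probe set (0%) and 0 of the 48 members at a limma adjusted p under 0.05. An unadjusted p under 0.05 was found for 2259 probe sets, 5.02% of all, and for 0 of the 48 members. Rps6, on its representing probe set, had the smallest p, with a slope of -0.25 ± 0.13 (SE; unadjusted p = 0.0545, limma adjusted p = 0.969), while its 4 bright shared probe sets had slopes of 0.003 to 0.026. The second probe set of Rps6 alone, which lay below the array medians, had a slope of -0.10 ± 0.06 (SE), with an unadjusted p of 0.124 from limma. The mean over both had one of -0.18 ± 0.07 (SE; unadjusted p = 0.0214, limma adjusted p = 0.933). Without ASC-53909 the representing probe set had a slope of -0.34, with an unadjusted p of 0.0127 from limma. Without ASC-5193 its slope was -0.19 ± 0.14 (SE), with an unadjusted p of 0.188 from limma. It was -0.18 ± 0.11 (SE; unadjusted p = 0.125) with the mouse as a random block and -0.28 ± 0.17 (SE; unadjusted p = 0.110) with 1 mean value per mouse. Rpl14, a large subunit protein, had a slope of -0.18 ± 0.10 (SE) and Rps4l one of -1.07 ± 0.63 (SE), with a limma adjusted p of 0.969 for both. The median slope of the 48 members was 0.019, beside 0.0005 for all probe sets. Both fits use the same arrays, so they are not separate evidence.

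Lines with other prefixes were also compared with PPT lines, with the mouse as a random block. No probe set (0%) and 0 of the 48 members passed a limma adjusted p of 0.05. At an unadjusted p under 0.05 there were 1831 probe sets, 4.07% of all, and 1 of the 48 members, which again is no more than the background. It was Rps25, with 8.73 ± 0.47 (SD, n = 12) in PPT lines and 8.29 ± 0.54 (SD, n = 11) in lines with other prefixes, a fitted difference of -0.38 ± 0.18 (SE; unadjusted p = 0.0402, limma adjusted p = 0.999). The groups overlapped, and this is one of the dim single-gene probe sets. The 4 lowest lines were those of mouse 53631, at 7.59 in B-53631, 7.70 in HEP2-53631, 7.74 in PUL3-53631 and 7.86 in PPT-53631. Without that mouse the difference was -0.31 ± 0.18 (SE), with an unadjusted p of 0.103 from limma. With the mouse as a fixed block it was -0.44 ± 0.15 (SE), with an unadjusted p of 0.0155, and without ASC-53909 it was -0.48 ± 0.16 (SE), with an unadjusted p of 0.00662 and a limma adjusted p of 0.991. Rps4l did not separate the name groups, with 5.49 ± 2.74 (SD, n = 12) for PPT and 5.50 ± 3.30 (SD, n = 11) for other prefixes and a fitted difference of -0.40 ± 1.04 (SE). Rps4x differed by -0.05 ± 0.07 (SE). The median difference over the 48 members was -0.007, beside 0.003 for all probe sets.

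The wider pathway gave no call in the 3 fits either. Of 19 measured genes of the mTORC1 and S6 kinase arm, 2 had a higher signal with a higher IC50 at an unadjusted p under 0.05 for each inhibitor and none a lower one, beside 6.43% of all probe sets for Bez235 and 5.02% for Rad001. They were Tsc2, which restrains mTORC1, with a slope of 0.20 ± 0.09 (SE) for Bez235 and 0.19 ± 0.07 (SE) for Rad001, and the mTOR partner Mlst8 with 0.14 ± 0.06 (SE) and 0.11 ± 0.05 (SE). Their limma adjusted p was 0.767 and 0.771 for Bez235 and 0.969 for both for Rad001. In the name comparison 1 of the 19, Mtor itself, was higher in lines with other prefixes (0.32 ± 0.15, SE; unadjusted p = 0.0401, limma adjusted p = 0.999). No gene of 30 for ribosome biogenesis or of 31 translation factors had an unadjusted p under 0.05 in any fit. Of 74 mitochondrial ribosomal proteins, 7 were higher in lines with other prefixes at an unadjusted p under 0.05 and none lower, beside 4.07% of all probe sets, with Mrpl17 at the smallest p (0.23 ± 0.07, SE; limma adjusted p = 0.999). The median of that list was 0.092, beside 0.003 for all probe sets. In the Bez235 fit 1 of the 74 had a positive and 2 a negative slope at that p, and in the Rad001 fit 1 a positive one and 0 a negative one.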

How the data were processed

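RNA of 23 lines was hybridised to GeneChip Mouse Genome arrays, 1 per line. The authors deposited log2 values per probe set. VSN is the method given in the supplementary methods and RMA the one in the submitters' processing notes, with versions not given in the sources used here. Normalization between arrays can remove or leave shifts shared by bright probe sets. The log2 values were used as deposited. Of 45101 probe sets, 64 controls were left out and 45037 were tested without a filter. In the platform annotation 34945 had 1 symbol, 932 several and 9160 none. The arrays hold no counts, so the number of lines limits the precision. No arrays were identical.

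Name groups came from the labels. The genotypes are given in part, and the rest is not reported here. Those give no IC50, so the IC50 values of the study's supplementary list served as a continuous measure of each line, are not printed and formed no groups. B-152727, absent there under this name, was left out. Fits used limma 3.58.1 in R 4.3.3 (lmFit, eBayes), and p-values were adjusted after Benjamini and Hochberg across the whole array, with 0.05 as the threshold. The name comparison had the mouse as a random block (duplicateCorrelation, 0.278), estimated once and reused in the alternatives with that block. The main IC50 fits had no block. In their alternatives with the mouse as a random block the correlation was 0.315 for Bez235 and 0.333 for Rad001. The fits were tested on simulated data. Descriptions used Python 3.11.15, pandas 2.3.3, NumPy 2.4.6 and matplotlib 3.10.9. Correlations are Pearson's r without a p.

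The members, lists and tests were chosen with earlier results of these data known. Genes were named by a rule: Rps4l, Rps6, Rps4x, the paralogues, the extremes of mean, SD, correlation and p among members, the non-members most and least like them, and the smallest p of each list. The brightness limit of 12, the removal of the mean of other bright genes, the shared probe sets, the p53 targets, the genes like Rps27l and like the bright members, and the fits without ASC-5193 or with B-152727 in mouse 15272 were added after seeing the data. The alternatives were quantile normalization, centring, a brightness filter, trended and robust variances, the mean over probe sets, other treatments of the mouse, B-152727 taken as B-15272, and leaving out the 2 lines farthest from the median IC50 or each mouse.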

Additional observations from a re-analysis of the deposited data

How the results depend on the processing

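The number of members called stayed 0 in each fit under every alternative run, and the median slope or difference of the members moved by less than their median standard error. Over all probe sets, leaving out 1 mouse gave 0 to 1 calls for Bez235 (1 without mouse 15272), 0 to 1 for Rad001 (1 without ASC-53909) and 0 for the name comparison. The median r over pairs of bright members was 0.771. It was 0.068 after quantile normalization and 0.575 with the mean over the probe sets of a gene, and lay between 0.729 and 0.799 without 1 mouse. For all members it was 0.481, and 0.040 after quantile normalization. The mouse as a replicate block changed no call: the Bez235 slope of Rps4l was -1.34 with a random block, and its difference between the name groups was 0.01 without a block and -0.74 with a fixed block over the mice with lines on both sides. Without mouse 53631 that difference was -1.55. Of 725 values under alternatives, 697 kept their call and moved by less than their standard error (the SD over pairs for a median r, 0.2 for a single r). The others were the 5 counts and median r values given above and 23 values of single genes, none of them called. Their cause was not tested. With 1 array per line, culture and array error cannot be told apart from the difference between lines.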
